A study of Mus musculus with 15 samples.

Results

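The nuclear cofactors of Notch signalling and the Deltex and Numb regulators were followed through 8 genes: Rbpj, Maml1, Maml2, Maml3, Dtx1, Dtx3, Dtx4 and Numb. Every probe set (a group of oligonucleotides that reads 1 transcript region) annotated to these symbols was taken, which gave 14 of the 45101 probe sets on the array. They covered 7 of the 8 genes, and Maml3 was not analysed here because no probe set carried its symbol. RNA was hybridised to 15 Affymetrix mouse arrays in 4 groups. These were FACS-sorted brain cells labelled SMC/pericyte of Notch3 -/- mice (5 arrays) and of Notch3 +/- mice (4 arrays), and aorta explants of Notch3 -/- and of Notch3 +/- mice with 3 arrays each. All mice were C57BL6J males 10 to 12 weeks old. Notch3 is a Notch receptor of vascular smooth muscle cells and pericytes, and every animal carried at least 1 disrupted copy, with no wild-type arrays analysed here. The labels do not say whether each aorta array stands for its own animal. The aorta p-values, and in part those of any comparison of brain with aorta, then describe a spread between arrays that may be technical.

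A Notch receptor that meets its ligand is cut, and its intracellular domain moves to the nucleus. There it binds RBPJ, the DNA-binding protein of the pathway, and the Mastermind-like proteins MAML1, MAML2 and MAML3 dock onto that pair and bring in histone acetyltransferases. Without the intracellular domain RBPJ can carry corepressors. Deltex proteins are RING-type ubiquitin ligases of which several bind the Notch intracellular domain, and NUMB is an endocytic adaptor that antagonises Notch at the membrane.

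None of these genes differed detectably with the number of Notch3 copies, while several differed between sorted brain cells and aorta. Of the 14 probe sets 10 passed the filter on brightness (a mean log2 value at or above the median of all probe sets in the fit) in each comparison. They stood for Rbpj, Maml1, Dtx1, Dtx3, Dtx4 and Numb. In brain cells 0 of 10 passed limma at 5% after Benjamini-Hochberg adjustment over 22519 probe sets, where 0.142% of all probe sets did, and in aorta 0 of 10 passed, where 0% did. At an unadjusted p under 0.05 the counts were 1 of 10 in brain and 0 of 10 in aorta, against 9.39% and 4.35% of all probe sets. Between tissues 9 of 10 passed in Notch3 -/- and 6 of 10 in Notch3 +/-, where 62.5% and 51.8% of all probe sets passed, and the members' counts are to be read against those shares. A difference below is always of mean log2(value + 16), which understates the change of dim probe sets, and its SE or 95% interval is that of limma for 1 probe set.

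The labels of the arrays matched their Notch3 values. The brighter Notch3 probe set read 150 to 249 in the 5 Notch3 -/- brain arrays, against 2326 to 2805 in the 4 Notch3 +/- brain arrays. In aorta it read 80.1 to 146 in Notch3 -/-, against 362 to 453 in Notch3 +/-. Markers of the labelled cells and of others were present in the brain preparation, as the plot of cell type markers shows. Smooth muscle markers (4 genes) summed to 11138 to 18444 in Notch3 -/- and 21926 to 38266 in Notch3 +/- brain arrays, and to 31281 to 34233 and 30280 to 34269 in the same genotypes of aorta. A sum follows its brightest genes. Of these 4 genes 3 were lower in brain than in aorta in each genotype. The other, Acta2, had higher means in brain (12907 and 20581, against 11448 and 11415), and it is named after its values were seen. It passed limma at 5% in Notch3 +/- only. In Notch3 -/- its brain arrays read 9728 to 15262 and overlapped its aorta arrays, at 11250 to 11632. Pericyte markers (5 genes) summed to 24575 to 32566 and 25493 to 54598 in brain, against 18129 to 19742 and 16426 to 18246 in aorta. By limma at 5%, 3 of these 5 genes were higher and 1 lower in brain in Notch3 -/-, and 4 higher and 1 lower in Notch3 +/-. Endothelial markers (5 genes) summed to 19698 to 23842 and 15137 to 28312 in brain, against 1323 to 1575 and 1373 to 1545 in aorta. Of these 5 genes 4 were higher in brain in each genotype. The other, Pecam1, was lower (means 90 and 99.5, against 396 and 378), and it too is named after its values were seen. Oligodendrocyte markers (4 of 5 genes had a probe set) summed to 23122 to 30387 and 21359 to 33696 in brain, against 357 to 417 and 331 to 787 in aorta, and astrocyte markers (5 genes) to 7573 to 15607 and 4791 to 15057, against 87.6 to 147 and 97.4 to 181. Microglia and macrophage markers (5 genes) summed to 8203 to 15104 and 8025 to 13288 in brain, against 2682 to 2913 and 2478 to 3536 in aorta. Of the 4 tested, 2 were higher and 1 lower in brain by limma at 5%, in each genotype. Fibroblast markers (5 genes) ran the other way, at 3520 to 5480 and 3372 to 4357 in brain, against 22357 to 24548 and 21339 to 23828 in aorta, and 0 marker values in any list were at 0. These sums, other than that of smooth muscle in Notch3 +/-, did not overlap between tissues, their part in those differences was not tested, and fewer cells of a type and less RNA per cell cannot be told apart. Brain RNA was extracted with a column kit and aorta RNA with Trizol first, which cannot be told apart from tissue.

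**Figure D1:**
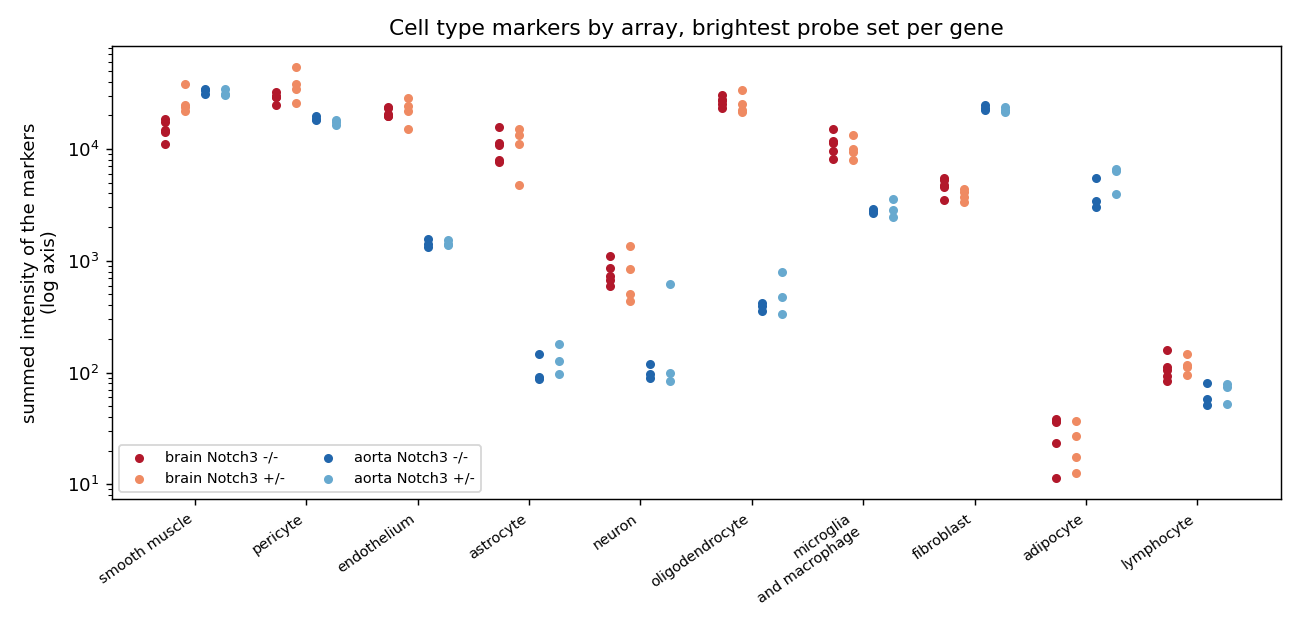
Summed intensity of cell type markers in each array (log axis, brightest probe set per gene), with 1 point per array in 4 groups. Pericyte, endothelial, oligodendrocyte and astrocyte sums, and those of microglia and macrophages, were higher in every brain array than in every aorta array. Fibroblast and adipocyte sums were lower.

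Rbpj, the DNA-binding partner of the Notch intracellular domain, was lower in brain cells than in aorta in both genotypes and at each of its 3 probe sets. At the brightest (1454896_at) the brain arrays read 963, 931, 993, 901 and 890 in Notch3 -/- and 1018, 832, 687 and 714 in Notch3 +/-, and the aorta arrays read 1635, 1362 and 1581 in Notch3 -/- and 1431, 1457 and 1227 in Notch3 +/-. Every brain array lay below every aorta array. The difference between tissues was -0.69 (SE 0.12, limma adjusted p = 0.000156) in Notch3 -/- and -0.76 (SE 0.17, adjusted p = 0.004) in Notch3 +/-, a 1.62-fold and a 1.69-fold lower level in brain cells. The second probe set (1448957_at) showed the larger difference. It read 231, 167, 205, 173 and 170 in brain Notch3 -/- and 185, 175, 226 and 160 in brain Notch3 +/-, against 489, 456 and 472 in aorta Notch3 -/- and 543, 460 and 439 in aorta Notch3 +/-. Brain and aorta arrays again did not overlap, with differences of -1.26 (SE 0.14, limma adjusted p = 4.71e-06) and -1.30 (SE 0.17, adjusted p = 9.92e-05). The third (1418114_at) read 58.2, 111, 92.7, 67.3 and 96.9 in brain Notch3 -/- and 81.8, 69.9, 21.8 and 69.2 in brain Notch3 +/-, against 128 to 145 in aorta Notch3 -/- and 108 to 117 in aorta Notch3 +/-. Its differences were -0.60 (limma adjusted p = 0.0161) and -0.83 (adjusted p = 0.0409). That probe set lost its call in Notch3 +/- without any 1 aorta array (limma adjusted p = 0.0953 without 5556, 0.0917 without 5561 and 0.107 without 6166), with a pseudocount of 1 (0.0573) and with no filter (0.079). In Notch3 -/- it lost its call without 6167 (limma adjusted p = 0.0632) and with all 15 arrays in 1 fit (0.0522).

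Genotype left the Rbpj arrays overlapping in brain at all 3 probe sets. Notch3 -/- minus Notch3 +/- was 0.22 at the brightest (95% interval -0.11 to 0.54, limma adjusted p = 0.681), 0.02 at the second and 0.46 at the third (-0.14 to 1.06, adjusted p = 0.63). The value at the third rested largely on brain Notch3 +/- replicate I, and without that array the difference was 0.15. In aorta the 3 differences were 0.15, -0.02 and 0.22, with limma adjusted p = 0.999 each. At the third probe set the aorta arrays did not overlap, at 129, 128 and 145 in Notch3 -/- and 112, 108 and 117 in Notch3 +/-, and it was the 1 of 10 member probe sets without overlap, against 9.47% of all probe sets in aorta. In brain it was 0 of 10, against 3.3%. By mean value at the brightest probe set the order was aorta Notch3 -/- (1526 ± 145, SD, n = 3), aorta Notch3 +/- (1372 ± 126, n = 3), brain Notch3 -/- (936 ± 42.9, n = 5) and brain Notch3 +/- (813 ± 150, n = 4), and within each tissue the 2 genotypes overlapped, whereas the lowest aorta array (1227) lay above the highest brain array (1018).

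The upstream sequences of Rbpj and Dtx1 are shown because Dtx1 and the second Rbpj probe set had the largest tissue differences of the 10 probe sets, in opposite directions, and because RBPJ protein reads the letters TGGGAA. They are the 250 bases before a RefSeq transcript start (GRCm38.p6), 5′ to 3′ on the strand of the gene, with TGGGAA or its reverse complement TTCCCA in capitals. Rbpj lies on the plus strand at chr5:53590096-53590345, and Dtx1 on the minus strand at chr5:120711670-120711919.
Rbpj: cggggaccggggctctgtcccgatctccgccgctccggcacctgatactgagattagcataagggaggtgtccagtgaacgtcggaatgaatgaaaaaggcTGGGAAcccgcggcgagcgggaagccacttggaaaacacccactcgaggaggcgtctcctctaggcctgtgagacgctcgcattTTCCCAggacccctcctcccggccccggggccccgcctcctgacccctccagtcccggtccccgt
Dtx1: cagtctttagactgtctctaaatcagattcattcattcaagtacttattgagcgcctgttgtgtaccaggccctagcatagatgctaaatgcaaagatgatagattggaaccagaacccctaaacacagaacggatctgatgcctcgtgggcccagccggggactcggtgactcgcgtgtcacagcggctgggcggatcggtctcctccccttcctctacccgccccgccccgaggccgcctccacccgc
The Rbpj window held 2 matches, starting 149 and 65 bases upstream of the transcript start, and the Dtx1 window held 0. A second Rbpj window in the table overlaps the one shown, and its 1 match is the downstream one of these. Over the members, 4 of 10 such windows of 6 genes held a match, with that shared one counted in both, and over all genes 21.6% of 32851 windows did, on either strand. A match describes letters and not a bound site, and no binding was measured in these samples.

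Maml1, a Mastermind-like coactivator, had the smallest difference between tissues at the brightest probe set of the 6 genes that passed the filter, an order that was not tested. Its brightest probe set (1426769_s_at) read 753, 716, 690, 606 and 629 in brain Notch3 -/- and 632, 705, 529 and 748 in brain Notch3 +/-, against 447, 468 and 627 in aorta Notch3 -/- and 558, 474 and 521 in aorta Notch3 +/-. Brain and aorta arrays overlapped in both genotypes. The difference between tissues was 0.40 (SE 0.14, limma adjusted p = 0.0248) in Notch3 -/- and 0.32 (SE 0.17, adjusted p = 0.131) in Notch3 +/-. The first call was lost without aorta array 5558 (limma adjusted p = 0.137) or 5559 (0.106) and when arrays were scaled to the same median (0.43), and the second comparison passed without brain array I (0.0482). A second probe set (1452188_at) read 96.8 to 181 in brain Notch3 -/- and 88.5 to 151 in brain Notch3 +/-, against 70.8 to 102 and 83.5 to 104 in aorta of the same genotypes. It gave 0.49 (limma adjusted p = 0.0632) and 0.34 (adjusted p = 0.198), and in Notch3 -/- it passed without brain array B (0.0416) or C (0.0457) or aorta array 6167 (0.0491) and with array weights (0.0357).

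Genotype differences of Maml1 were 0.06 in brain (95% interval -0.26 to 0.38, limma adjusted p = 0.935) and -0.02 in aorta (-0.33 to 0.29, adjusted p = 0.999). At the second probe set they were -0.03 (limma adjusted p = 0.98) and -0.18 (adjusted p = 0.999). One more Maml1 probe set (1441697_at, 3.81 to 30.2 over the 15 arrays) and the single probe set of Maml2 (1427926_at, 1.88 to 10.2) lay below the brightness filter. So did 1 of Dtx1 (1458643_at, 1.24 to 19.5) and 1 of Numb (1425368_a_at, 2.3 to 12.8). With no filter none of these 4 passed limma in any comparison, the lowest adjusted p being 0.21. Maml2, another Mastermind-like coactivator, therefore has values here but no difference to report.

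Dtx1, a Deltex ligase and itself a known transcriptional target of Notch in lymphocytes, was the member most strongly higher in brain cells. Its bright probe set (1425822_a_at) read 490, 422, 504, 627 and 605 in brain Notch3 -/- and 424, 514, 675 and 1040 in brain Notch3 +/-, against 149, 113 and 163 in aorta Notch3 -/- and 179, 136 and 134 in aorta Notch3 +/-. The lowest brain array was above the highest aorta array. Levels were 3.46-fold higher in brain in Notch3 -/- (log2 1.79, SE 0.16, limma adjusted p = 6.03e-07) and 3.90-fold higher in Notch3 +/- (log2 1.96, SE 0.27, adjusted p = 0.000131), and both passed with any 1 array left out.

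Between genotypes Dtx1 in brain differed by -0.25 (95% interval -0.73 to 0.23, limma adjusted p = 0.772). That value rested on 1 array: brain Notch3 +/- replicate H held the highest Dtx1 value, 1040, and without it the difference was -0.01 (adjusted p = 0.993). Array H also had the highest summed smooth muscle (38266), pericyte (54598), endothelial (28312), oligodendrocyte (33696), astrocyte (15057), microglia and macrophage (13288) and fibroblast (4357) markers of the 4 Notch3 +/- brain arrays, and their part in its Dtx1 value was not tested. In aorta the genotype difference was -0.08 (-0.45 to 0.30, limma adjusted p = 0.999).

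Dtx3, a Deltex family member, was lower in brain cells than in aorta. Its probe set (1420752_at) read 503, 282, 477, 600 and 362 in brain Notch3 -/- and 640, 633, 458 and 671 in brain Notch3 +/-, against 1018, 761 and 767 in aorta Notch3 -/- and 867, 1089 and 984 in aorta Notch3 +/-. No brain array reached the lowest aorta array. The difference between tissues was -0.94 (SE 0.21, limma adjusted p = 0.00155) in Notch3 -/- and -0.70 (SE 0.18, adjusted p = 0.00649) in Notch3 +/-, and both passed with any 1 array left out.

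Dtx3 had the largest genotype difference by p among the members in brain. The 5 Notch3 -/- brain arrays averaged 445 ± 124 and the 4 Notch3 +/- brain arrays 601 ± 96.4 (SD), with overlapping arrays and a difference of -0.45 (95% interval -0.90 to -0.0028). Its unadjusted limma p was 0.0488 and its adjusted p 0.527, so it did not pass over all probe sets. In aorta the means were 848 ± 147 and 980 ± 111 (n = 3 each), a difference of -0.21 (-0.51 to 0.09, limma adjusted p = 0.999).

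The 2 probe sets of Dtx4, another Deltex ligase, disagreed in direction between tissues. One (1455711_at) read 131, 141, 93.1, 245 and 181 in brain Notch3 -/- and 92, 156, 160 and 154 in brain Notch3 +/-, against 72.4, 59.4 and 87 in aorta Notch3 -/- and 98, 77.2 and 56 in aorta Notch3 +/-. Brain and aorta arrays did not overlap in Notch3 -/-, and in Notch3 +/- the lowest brain array lay among the aorta arrays. It was higher in brain, with a difference of 0.92 (SE 0.24, limma adjusted p = 0.00476) in Notch3 -/- and 0.75 (SE 0.24, adjusted p = 0.0221) in Notch3 +/-. The other (1436545_at) read 129, 101, 157, 203 and 187 in brain Notch3 -/- and 140, 169, 195 and 93.1 in brain Notch3 +/-, against 212, 209 and 240 in aorta Notch3 -/- and 261, 163 and 194 in aorta Notch3 +/-. Here too the arrays overlapped in Notch3 +/- and not in Notch3 -/-. It was lower in brain, with a difference of -0.50 (SE 0.20, limma adjusted p = 0.042) in Notch3 -/-, and the difference was -0.44 (SE 0.25, adjusted p = 0.158) in Notch3 +/-.

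The ratio of the first to the second within an array, looked at after these values were seen, showed the disagreement directly. Its log2 averaged -0.003 ± 0.42 (SD, n = 5) in brain Notch3 -/- against -1.42 ± 0.14 (n = 3) in aorta Notch3 -/-, and -0.07 ± 0.50 (n = 4) in brain Notch3 +/- against -1.26 ± 0.30 (n = 3) in aorta Notch3 +/-. Brain and aorta ratios did not overlap in either genotype. This describes the values that prompted it and was not tested. Because the 2 probe sets differ in direction, none is given for Dtx4 as a gene. The call of the lower probe set in Notch3 -/- was lost without brain array A (limma adjusted p = 0.0764), B (0.075) or C (0.0582) or aorta array 5558 (0.0834), 5559 (0.0771) or 6167 (0.132), with no filter (0.0687), with quantile normalization (0.0554) and with all 15 arrays in 1 fit (0.0674). That of the higher probe set in Notch3 +/- was lost without brain array G (limma adjusted p = 0.0551) or aorta array 5561 (0.0586) or 6166 (0.109) and with arrays scaled to the same median (0.0743), which also brought the lower probe set past 5% in that genotype (0.0357). Genotype differences of Dtx4 were 0.12 and 0.06 in brain and -0.05 and 0.11 in aorta, none past 5% by limma.

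Numb, the endocytic adaptor, was lower in brain cells in Notch3 -/-, and in Notch3 +/- it did not pass the test. Its bright probe set (1416891_at) read 294, 429, 361, 440 and 495 in brain Notch3 -/- and 411, 479, 397 and 237 in brain Notch3 +/-, against 596, 507 and 562 in aorta Notch3 -/- and 565, 545 and 510 in aorta Notch3 +/-. Every brain array lay below every aorta array of either genotype. The difference was -0.46 (SE 0.16, limma adjusted p = 0.0245) in Notch3 -/- and -0.53 (SE 0.22, adjusted p = 0.0655) in Notch3 +/-. The first was lost without brain array C (limma adjusted p = 0.0517) or aorta array 5558 (0.0987) or 6167 (0.069) and with quantile normalization (0.058), and the second passed without brain array G (0.0376), with arrays scaled to the same median (0.0189) and with all 15 arrays in 1 fit (0.0336). Genotype differences were 0.10 in brain (95% interval -0.35 to 0.55, limma adjusted p = 0.916) and 0.04 in aorta (-0.19 to 0.26, adjusted p = 0.999).

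**Figure D2:**
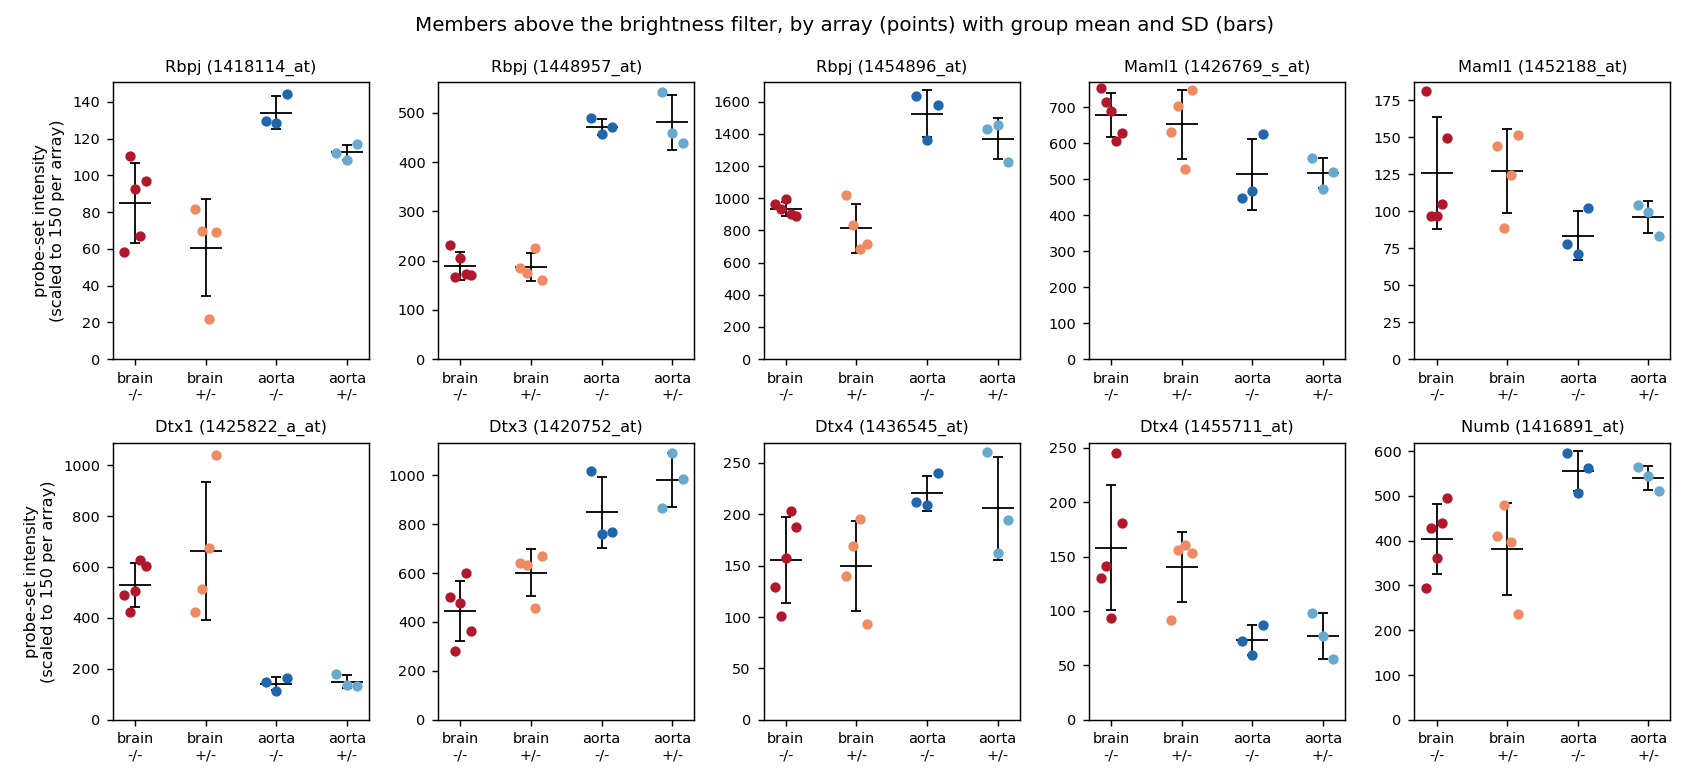
Probe-set intensity (deposited scale, axis from 0) in each array for the 10 probe sets above the brightness filter; points are arrays, and bars are the group mean and SD. Genotypes overlap within brain in every panel, Dtx1 is higher in brain than in aorta (lowest brain array 422, highest aorta array 179), and the 2 Dtx4 panels lean in opposite directions.

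The intervals set the size of genotype difference that these arrays could still hold. At the brightest probe set of each gene no 95% interval reached beyond a 1.87-fold change in brain or a 1.43-fold change in aorta, and at any of the 10 probe sets beyond a 2.08-fold and a 1.45-fold change. The median difference over the 10 was 0.06 in brain, beside 0.01 over all probe sets tested, and -0.02 in aorta, beside 0.00. The brain effect minus the aorta effect passed at 0 of 10, where 0.0178% of all probe sets passed, with 0 of 10 at an unadjusted p under 0.05 (4.76% of all), and no interval reached beyond 2.02-fold. Smooth muscle marker sums, given above, also differed with genotype in brain: 2 of the 4 genes were lower in Notch3 -/- by limma at 5%, and their part in the members' values was not tested. Spread within a group, as the SD of log2 values, was wider in brain than in aorta for Numb (0.28 in Notch3 -/- and 0.42 in Notch3 +/- brain arrays, against 0.11 and 0.07 in aorta of the same genotypes). For Dtx1 the SDs were 0.23 and 0.55 in brain, against 0.25 and 0.21 in aorta, the widest being that of the Notch3 +/- brain group, which holds array H.

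**Figure D3:**
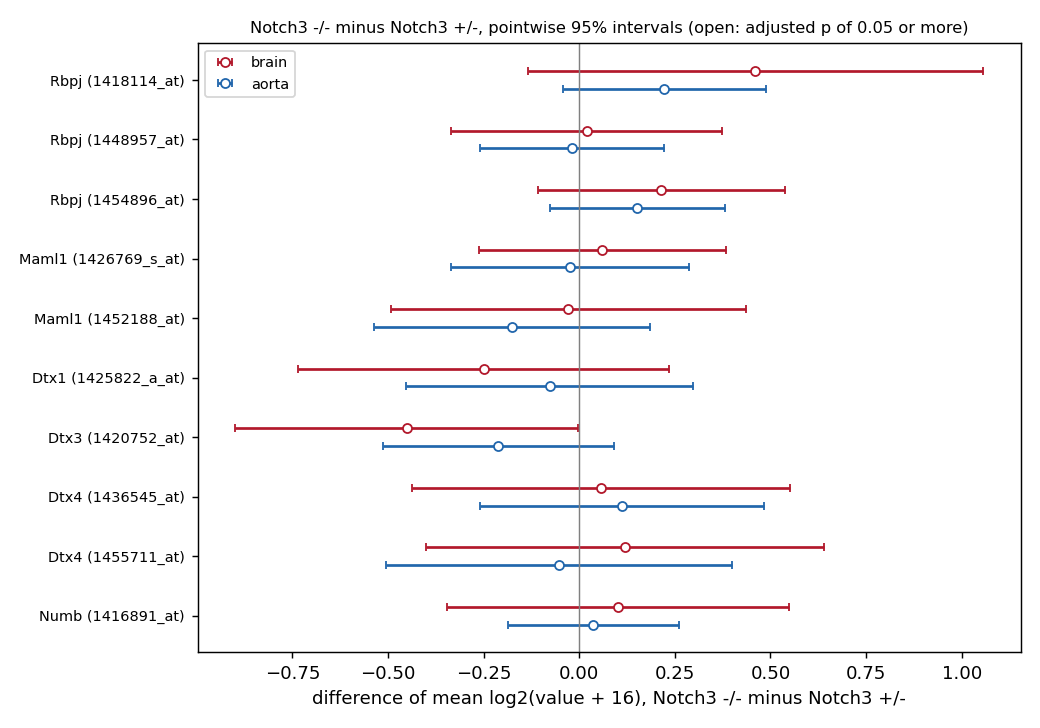
Notch3 -/- minus Notch3 +/- for the 10 probe sets, on the log2(value + 16) scale, in brain and in aorta; bars are 95% intervals of single probe sets, and open points did not pass 5%. No point is filled, and the largest difference is 0.46 at the third Rbpj probe set (1418114_at) in brain. Without brain Notch3 +/- replicate I that difference is 0.15.

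Tissue differences could be read in 2 genotypes with no array in common. In Notch3 -/- 3 of 10 probe sets were higher and 6 lower in brain, where 33.6% and 28.9% of all probe sets were, and in Notch3 +/- 2 were higher and 4 lower, where 26.5% and 25.2% were. Of 10 probe sets 6 passed in both genotypes with the same sign, 2 higher (Dtx1 and 1 of Dtx4) and 4 lower (3 of Rbpj, and Dtx3) in brain, against 48.1% of the 21604 probe sets tested in both. Arrays of brain and aorta did not overlap at 8 of 10 in Notch3 -/- and 6 of 10 in Notch3 +/-, where 60% and 56.2% of all probe sets did not. The median over all probe sets tested was itself 0.11 in Notch3 -/- and 0.07 in Notch3 +/-. Scaling the arrays to the same median moved it by -0.23 and -0.21, and gave 5616 calls higher and 8112 lower over all probe sets in Notch3 -/- (7558 and 6518 as deposited) and 4290 and 7142 in Notch3 +/- (5976 and 5685 as deposited). No tested member probe set changed direction between tissues under it. The member calls were then 2 higher and 6 lower in Notch3 -/- and 1 and 6 in Notch3 +/-. With quantile normalization they were 3 higher and 4 lower in Notch3 -/-, where the calls of Numb and of 1 Dtx4 probe set ended, and 2 and 4 in Notch3 +/-.

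**Figure D4:**
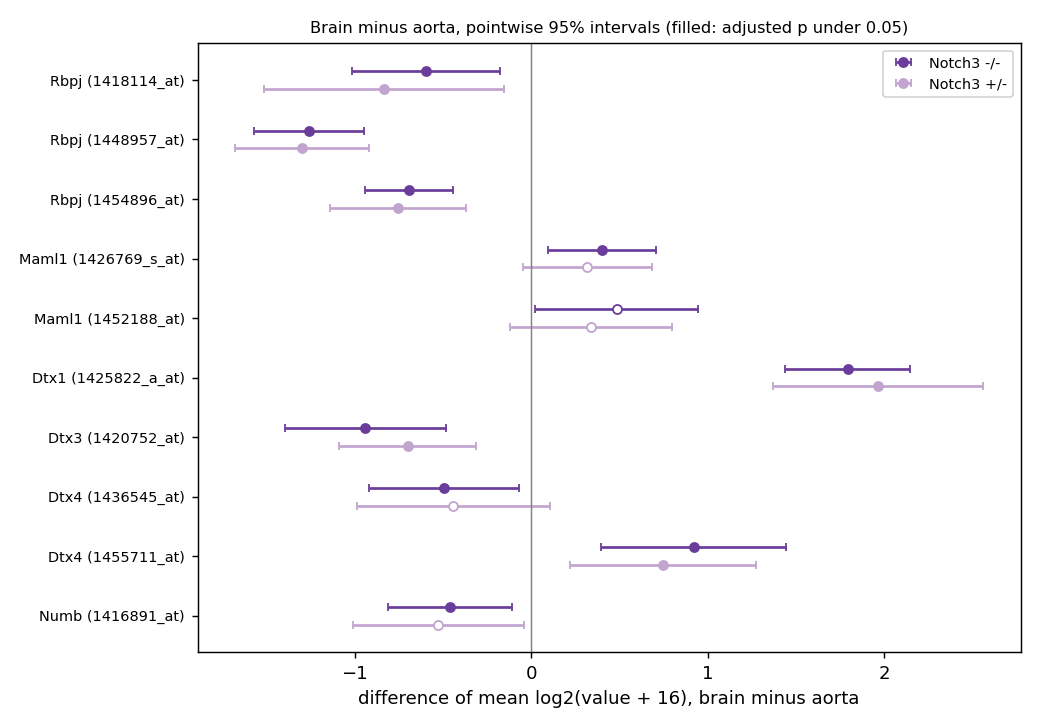
Brain minus aorta for the 10 probe sets, on the log2(value + 16) scale, in Notch3 -/- and in Notch3 +/-; bars are 95% intervals of single probe sets, and filled points passed 5%. Dtx1 stands furthest right (1.79 and 1.96), the Rbpj probe sets, Dtx3 and Numb lie left of 0, and the 2 Dtx4 probe sets lie on either side.

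The genes whose values over the 15 arrays were most like those of a member were found by the root mean square difference of log2 values, each less its own mean, over 18192 other genes. For Rbpj these were Tmed8 (0.09) and Tspan6 (0.13), where Rbpj itself varied by 0.39. For Dtx1 they were the cadherin Cdh2 (0.16) and Kirrel3 (0.18), an adhesion protein of the immunoglobulin superfamily, with 0.97 for Dtx1 itself. Cdh2 averaged 194 and 213 in Notch3 -/- and Notch3 +/- brain arrays, against 38.3 and 37.9 in aorta of the same genotypes. For Dtx3 they were Ypel3 (0.18) and Frg1 (0.19), with 0.52 for Dtx3. These arrays share tissue and genotype, and how far the likeness follows the brain and aorta levels was not tested.

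The genes that work beside the members were read from lists covering 104 other genes, of which 100 had a probe set. Each was read at its brightest probe set. The shares of all probe sets set beside these lists also hold secondary probe sets, so the 2 are not fully alike. Between genotypes none passed limma at 5%: 0 of 94 tested in brain (16 at an unadjusted p under 0.05, or 17%, against 9.39% of all probe sets) and 0 of 86 in aorta (4, or 4.65%, against 4.35%). Of the RBPJ coactivator complex 5 of 9 genes were lower in brain than in aorta and 0 higher, in each genotype, with a median difference of -0.41 in Notch3 -/- and -0.64 in Notch3 +/-. They included the acetyltransferase Crebbp (-0.9997 in Notch3 -/- and -0.77 in Notch3 +/-), cyclin C, encoded by Ccnc (-1.12 and -1.27), and the Mediator kinase module subunit Med13 (-0.70 and -0.87). RBPJ corepressors were split, with 4 of 17 higher and 4 lower in Notch3 -/-, and 3 higher and 2 lower in Notch3 +/-. The histone deacetylase Hdac2 (-2.16 and -2.11) and the LIM protein Fhl1 (-1.39 and -1.93) were lower in brain, and Cbfa2t3, a corepressor of the ETO family, was higher (1.02 and 0.94). Probe sets were not matched to splice forms.

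Among the other Deltex genes and the ubiquitin ligases that act on Notch ligands, 6 of 8 were higher and 1 lower in brain in Notch3 -/-, and 4 higher and 1 lower in Notch3 +/-. Dtx2, a further Deltex ligase, was higher, with differences of 1.82 in Notch3 -/- and 1.53 in Notch3 +/-, as was the ligand-directed ligase Neurl1b (1.09 and 1.27), whereas Mib1, which ubiquitinates ligands for endocytosis, was lower (-1.43 and -1.28). Of the genes for turnover of the Notch intracellular domain 2 of 9 were higher and 5 lower in Notch3 -/-, and 2 higher and 4 lower in Notch3 +/-. The ligases Nedd4 (-2.87 and -2.32), Wwp2 (-2.00 and -1.90) and Itch (-0.94 and -1.27) were among those lower in both genotypes, and ITCH is a partner of NUMB. Partners of NUMB and its endocytic machinery went both ways, 8 of 22 higher and 6 lower in Notch3 -/-, and 10 of 21 higher and 5 lower in Notch3 +/-. Among them Prkcz, an atypical protein kinase C, was higher (1.81 and 1.58), as was the dynamin Dnm2 (1.60 and 1.44), and Mdm2, a ubiquitin ligase that binds NUMB, was lower (-1.69 and -1.40). All these calls are limma adjusted p under 5% over the whole array, and the shares of all probe sets higher and lower stand above.

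At the edges of the pathway, Notch receptors other than Notch3 numbered 2 higher and 1 lower of 3 in brain against aorta in each genotype. Notch1 (2.49 in Notch3 -/- and 2.58 in Notch3 +/-) and the endothelial receptor Notch4 (1.89 and 2.03) were higher, and Notch2 (-2.02 and -2.10) was lower. Ligands numbered 3 higher and 2 lower of 5 in Notch3 -/- and 3 higher and 0 lower of 5 in Notch3 +/-. Cleavage and glycosylation genes numbered 4 higher and 3 lower of 12 in Notch3 -/-, and 4 and 1 in Notch3 +/-. Among the ligands Jag2 (4.59 and 4.99) and the endothelial ligand Dll4 (0.83 and 1.07) were higher. Notch target genes numbered 6 higher and 2 lower of 8 in Notch3 -/-, and 6 and 1 of 9 in Notch3 +/-. Beside these counts, 33.6% of all probe sets were higher and 28.9% lower in Notch3 -/-, and 26.5% and 25.2% in Notch3 +/-. The transcriptional repressors Hes5 (4.61 and 4.90) and Hey1 (2.45 and 2.40) were higher, and Hey2 (-2.78 and -2.44) was lower. In aorta Hes5 averaged 2.48 in Notch3 -/- and 7.05 in Notch3 +/-, and Jag2 15.5 and 15.9. These means lie below the 16 added before the log, so the sizes of the Hes5 and Jag2 differences depend on it.

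Several genes of these lists had a smaller unadjusted p between genotypes in brain than any member, and none passed after adjustment. In aorta 7 targets were tested, 5 higher and 2 lower in Notch3 -/-, with a median difference of 0.12 and 0 past 5% by limma. In brain the 8 targets tested had a median difference of -0.42, beside 0.01 over all probe sets. Of these 6 were lower and 2 higher, with 0 past 5% by limma. Heyl differed by -0.51 (SE 0.18, limma adjusted p = 0.402), Hes1 by -0.66 (SE 0.25, adjusted p = 0.423) and Hes5 by -0.58 (SE 0.24, adjusted p = 0.459), all transcriptional repressors of the Hes and Hey family. Among genes beside the members, Fhl1, listed with the corepressors, differed by 0.58 (limma adjusted p = 0.383), the ligand-directed ligase Mib2 by -0.88 (adjusted p = 0.415), Nedd4 by -0.51 (adjusted p = 0.426) and the endocytic adaptor Epn2 by -0.66 (adjusted p = 0.426). Smooth muscle markers moved with the same genotype contrast, as given above, and their part was not tested.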

How the data were processed

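Each deposited value is a linear probe-set intensity from an Affymetrix mouse 430 2.0 array that received 15 µg of cRNA. Per the labels the authors brought every array to a target of 150. The sources used here name no method of summarising probes or correcting background, and no detection calls were used. Symbols came from the platform annotation, updated through Entrez identifiers (34754 of 34958 single-symbol probe sets matched RefSeq, assembly GRCm38.p6). After removal of 64 control probe sets, log2(value + 16) of probe sets at or above the median mean was tested two-sided in limma 3.58.1 (R 4.3.3; lmFit, then eBayes with trend). Benjamini-Hochberg adjustment ran over 22519 probe sets at 5%. The fits were tested on simulated data, with no result of that given here. Replicates correlated at 0.932 to 0.981 within a group and shared at most 0.00666% of values, so none was a copy of another. Each array counted once, though these values do not show that arrays come from separate animals. The number of arrays limits the precision. Members, lists and tests were chosen with earlier results of these data known. Named genes were all member probe sets, Notch3, up to 3 genes per list by smallest brain genotype p and up to 3 by largest tissue difference called in both genotypes, and 2 likest genes per member called at its brightest probe set in both. List genes were read at their brightest probe set. Alternatives changed the pseudocount, filter, scaling, variance model, array weights and arrays in the fit, and in aorta took the 55xx and 61xx series of array names as a block. The letters that name the brain arrays nearly sort by genotype, Notch3 -/- holding the first letters (A to D, with F) and Notch3 +/- the later ones (E, with G to I). The labels give the letters no meaning, and their part in the brain genotype differences was not tested.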

Additional observations from a re-analysis of the deposited data

Results flagged for a closer look

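In 4 of 32 brain groups looked at (16 probe sets of the members and Notch3), 1 array stood apart from the rest of its group by Dixon's test at 95%, where chance flags about 1 in 20. One Rbpj probe set (1418114_at) read 21.8 in brain Notch3 +/- replicate I, against 69.2 to 81.8 in the other arrays of that group. Dtx3 read 458 in the same array, against 633 to 671. One Dtx4 probe set (1455711_at) read 92 in brain Notch3 +/- replicate E, against 154 to 160. The dim Numb probe set read 2.3 in brain Notch3 -/- replicate B, against 6 to 7.49, all below the brightness filter. Without brain Notch3 +/- replicate I the brain genotype difference was 0.15 at that Rbpj probe set. For Dtx3 it was -0.57 without the same array (limma adjusted p = 0.46). The genotype difference of Notch3 itself was larger in brain than in aorta by -1.78 at its brighter probe set (limma adjusted p = 0.0117 for the difference, 0.0683 without aorta Notch3 +/- replicate 5561 and 0.0824 without 6166).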

How the results depend on the processing

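Under every alternative run, 0 member probe sets passed between genotypes in brain, in aorta or in the difference between them, by limma. Between tissues 6 to 10 passed in Notch3 -/- and 4 to 7 in Notch3 +/-. Single genotype differences of members that had not passed changed sign, without passing, in 18 instances in brain and 14 in aorta. For the brain effect minus the aorta effect this happened in 19 instances. No paired analysis was possible because the groups share no replicate names. Array names of both aorta genotypes fall in a 55xx and a 61xx series, whose meaning the labels do not give. With that series as a block 0 members and 0 of all probe sets passed between genotypes in aorta.

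Counts over all probe sets moved more. In brain 32 passed as reported, 50 with a pseudocount of 64, 18 without a filter, 20 with arrays scaled to the same median, 52 with array weights, 137 with all 15 arrays in 1 fit, and 10 to 38 with 1 array left out (10 without Notch3 +/- replicate H, 15 without G, 21 without Notch3 -/- replicate C and 14 without D). In aorta 0 passed as reported (980 at an unadjusted p under 0.05), 1 with arrays scaled to the same median, 2 with all 15 arrays in 1 fit, and 0 to 7 with 1 array left out (7 without Notch3 +/- replicate 5556, 1 without Notch3 -/- replicate 5559 and 7 without 6167). For the brain effect minus the aorta effect 4 passed, and 13 with array weights. With 1 array left out 0 to 7 passed (7 without aorta Notch3 +/- replicate 5556, 1 without 5561, 0 without 6166 and 1 without Notch3 -/- replicate 5558). Restricting the fit to probe sets above the 75th percentile of brightness gave 8106 calls between tissues in Notch3 -/- and 6963 in Notch3 +/-, with fewer probe sets tested, against 14076 and 11661. The causes of the other moves were not tested. The probe set of Maml2 and 3 dim probe sets of Maml1, Dtx1 and Numb lay below the brightness filter, and their signal over background was not measured here.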
